A study of Ovis aries with 18 samples.

Results

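The SNPs described here lay in 3' untranslated regions (3' UTRs), the part of an mRNA after the stop codon, and were read in the RNA of perirenal adipose tissue from sheep fetuses. A SNP of the deposited table was a member when it was on an autosome and its only listed consequence was a 3' UTR variant. This rule kept 3415 SNPs in 804 genes, 14.02% of the 24355 SNPs of the table, on all 26 autosomes. A further 55 3' UTR SNPs on chromosome X and 5 with a second, splice region term were left out. The tissue came from 18 singleton pure bred Merino fetuses, labelled as 16 female and 2 male, at 132 days of gestation. They had 1 common sire and unrelated dams that were fed to maintenance, and all were of a single condition with no treated group. Each fetus gave 1 RNA-Seq library, so the 18 libraries were the replicates. The comparisons were therefore between the reference and alternate allele within a heterozygous fetus, between SNPs of the same 3' UTR, and between 3' UTR and synonymous SNPs.

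A 3' UTR is not translated. It carries the sites at which microRNAs and RNA-binding proteins act on the stability, location and translation of an mRNA, and it ends at the site of polyadenylation, which can differ between mRNA forms of a gene. Both alleles of a heterozygous animal share the same nuclei and the same environment, so the share of reads from an allele, termed allelic imbalance (AI) where it departs from equality, is a measure made within an animal. Perirenal fat of the late gestation fetal lamb is a brown adipose depot that makes heat at birth through uncoupling protein 1. The adipocyte genes ADIPOQ and UCP1 were among the most deeply read genes of the table, with median depths of 13410 and 11840 reads per fetus at their SNPs. The adipocyte genes PLIN1, CIDEA and LEP were read at 2370, 477 and 83.9 reads. Markers of other cells were read too, including CDH5, KDR and VWF of endothelium at 253 to 348 reads. COL1A1, DCN and PDGFRA of fibroblasts had 1534, 938 and 40.3 reads. STAR of adrenal cortex had 46.4 reads, and many other markers had no SNP in the table.

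The members were unevenly spread over genes. A single member was found in 270 genes, 534 genes held at least 2, and 83 genes with at least 10 held 1345 of the members. Members of a gene share its mRNA and are not independent. A fetus was heterozygous at between 1643 and 1910 members, which were covered by 215018 to 394506 reads per fetus, and the median depth was 73.4 reads per heterozygous fetus (quartiles 44.2 and 137) against 65.3 for synonymous SNPs. Members more often had a listed SNP of any class close by than synonymous SNPs did: 63.9% of them, and 35.3% of the synonymous SNPs, had another listed SNP within 100 bp. Transitions made up 70.6% of the members and 85.8% of the synonymous SNPs. Fetus 10, labelled female, was heterozygous at 29.1% of the 244 SNPs of chromosome X, within the 25.4% and 32.4% of the 2 males, while the other females were at 54.1% or more; without this fetus 877 members were called with fetuses as replicates, 1405 on summed reads, 12 genes differed between regions, and the difference per fetus described below was 1.66 points. Most members (3077) were heterozygous in 5 to 14 fetuses, 270 were heterozygous in 15 or more, 54 in 1 to 4 and 14 in none.

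For each SNP, the reference share is the fraction of reads with the reference allele over the fetuses called heterozygous, and a share of 0.5 is equality. It was tested on the summed reads, and with the fetuses as replicates in a moderated quasi-binomial F test. A SNP was called where the Benjamini-Hochberg adjusted p over all SNPs of the table was under 0.05. With fetuses as replicates, 914 of 3384 testable members (27.0%) were called, where 24.5% of all SNPs were, so the members' share was close to that of the table. On summed reads, 1437 of 3401 members (42.3%) were called against 38.0% of all SNPs. Synonymous autosomal SNPs were called at 20.9% and 34.3% in the same tests. The reference allele was higher at 732 of the 914 called members (80.1%) and the alternate allele at 182. The median share over all members was 0.519, and the median distance from 0.5 was 0.0367, against 0.517 and 0.0311 for synonymous SNPs. When the null was set to the median share of all SNPs (0.519), 842 members were called and 62.8% of them had the reference allele higher.

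Summed over a fetus, the reads at members held more of the reference allele than the reads at synonymous SNPs. The 3' UTR share of reference reads was 54.4% ± 0.765 (SD, n = 18) and ranged from 53.3% to 56.1%, and the synonymous share was 52.7% ± 0.252 (SD, n = 18), from 52.2% to 53.1%. The groups of values did not overlap, and the 3' UTR value was the higher in 18 of 18 fetuses. The difference was 1.70 percentage points ± 0.881 (SD, n = 18) and lay between 0.390 and 3.33 (sign-flip permutation test over fetuses, two-sided, 100000 resamples, p = 2e-05, the smallest they can give). Its size depended on the SNPs and the summary: the median over SNPs in place of summed reads gave 0.574 points ± 0.333 (SD, n = 18), and SNPs heterozygous in 5 to 14 fetuses gave 1.10 points ± 0.908 (SD, n = 18), with 16 of 18 fetuses higher in the 3' UTR and a lowest difference of -0.346. With only SNPs that had no other listed SNP within 100 bp, the difference was 0.278 points ± 0.517 (SD, n = 18) and 12 of 18 fetuses were higher in the 3' UTR (p = 0.0331, same permutation test). With SNPs that had another listed SNP within 5 bp left out of both classes, the shares were 52.4% and 52.5%, the difference was -0.0734 points ± 0.531 (SD, n = 18), and the 3' UTR value was higher in 8 of 18 fetuses (p = 0.567, same permutation test). The limit of 5 bp was chosen after the values of the members had been seen.

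**Figure D1:**
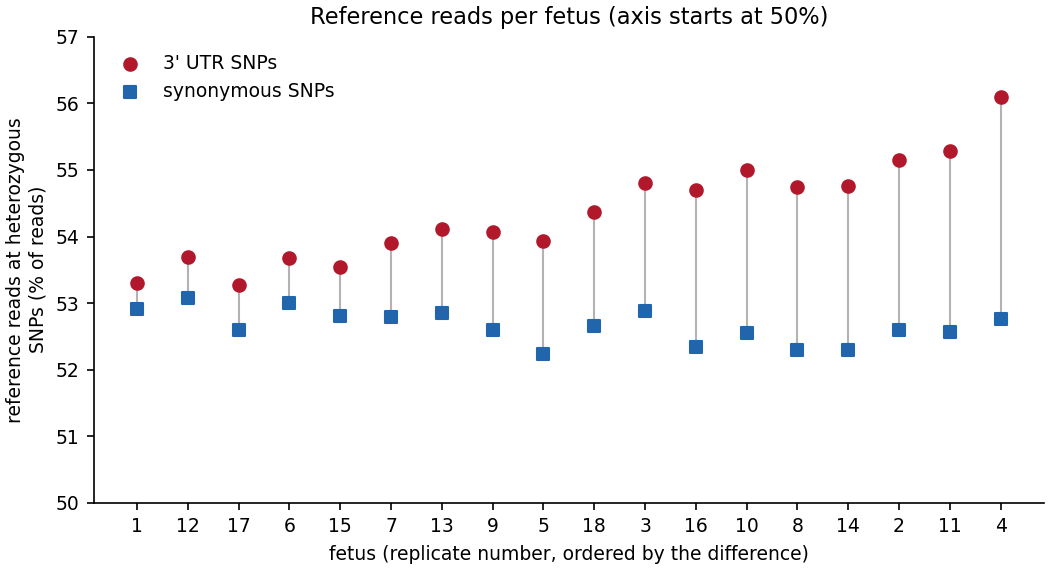
Percentage of reads with the reference allele, summed over heterozygous SNPs, in each of the 18 fetuses, which are numbered as replicates and ordered by the difference (vertical axis in %, starting at 50). Circles are 3' UTR SNPs, squares are synonymous SNPs and grey lines join the values of a fetus; the circles sit above the squares in 18 of 18 fetuses, between 53.3% and 56.1%.

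The distance to the nearest listed SNP moved with the reference share of the members. Among members heterozygous in 5 to 14 fetuses, the 428 with another SNP within 5 bp had a median share of 0.549 (quartiles 0.4997 and 0.666), and 32.01% of them had a share of 0.6 or more against 1.17% with a share of 0.4 or less. Of these, 175 (40.9%) were called with fetuses as replicates, 161 with the reference allele higher. The 1500 members whose nearest SNP was 6 to 100 bp away had a median of 0.515, and 23.3% were called. The 1149 members with no other SNP within 100 bp had a median of 0.514 and 17.4% were called, 145 with the reference and 55 with the alternate allele higher. Synonymous SNPs followed the same order with a shorter upper range: 33.3%, 20.6% and 17.5% were called in the same bins, and 15.6% of those within 5 bp of another SNP had a share of 0.6 or more. In the bin beyond 100 bp the members and the synonymous SNPs were thus called at nearly the same rate. The median depth of the members fell from 81.8 to 65.7 reads from the first to the last bin. The part of neighbouring variants, depth or alignment in these shares was not tested.

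**Figure D2:**
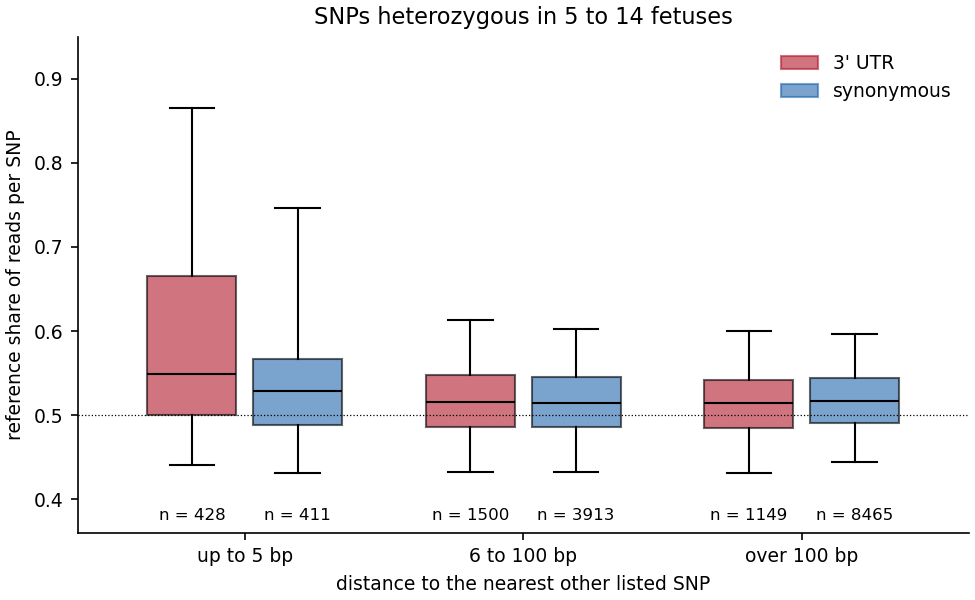
Reference share per SNP (vertical axis) by distance to the nearest other listed SNP (horizontal axis), for 3' UTR members and synonymous SNPs heterozygous in 5 to 14 fetuses. Boxes are quartiles with the median, whiskers run from the 5th to the 95th percentile, and n is the number of SNPs; the box of members within 5 bp of another SNP reaches 0.666 while the other member boxes end at 0.548 and 0.542.

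Large departures were almost all toward the reference allele. Of the 724 called members heterozygous in 5 to 14 fetuses, 334 in 168 genes had a mean share at least 0.1 from 0.5, with more reference than alternate reads at 279. At a distance of at least 0.2 there were 148 members, with 140 toward the reference allele, and 59.5% had another SNP within 5 bp. All 86 members at 0.3 or more, in 51 genes, were toward the reference allele.

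The named members below were those with the largest mean departures, 1 per gene, among 322 members in 148 genes in which all heterozygous fetuses favoured the same allele and homozygous fetuses showed at most 2% of reads with the other allele. The first 15 were CCBL1, ALDH5A1, RPS23, ATG6, IDH1, CAST, ZMYND11, HBBB, BDH1, ATAD1, CD300LG, FLOT1, ATP9A, HAGHL and ADAM19. A SNP is written as its reference base, its position on the Oar v3.1 assembly and its alternate base. The reference allele was higher at 15 of the 15, and 9 had another listed SNP within 5 bp.

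CCBL1 encodes a kynurenine aminotransferase. Its SNP G7506452C on chromosome 3 was heterozygous in 5 fetuses, whose reference shares were 0.886, 0.931, 0.920, 0.923 and 0.908. The mean was 0.914 ± 0.0174 (SD, n = 5), from 1155 reference and 109 alternate reads, with an adjusted p of 6.49e-12. All 5 fetuses were thus close to each other and far from equality.

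ALDH5A1, succinate semialdehyde dehydrogenase of the mitochondrial breakdown of GABA, carried A32127205C on chromosome 20. The share ran from 0.872 through a median of 0.914 to 0.933 over 7 fetuses, and 11 homozygous fetuses had no read of the other allele. Another SNP stood 2 bp away, and 9 stood within 100 bp.

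IDH1, the cytosolic isocitrate dehydrogenase that makes NADPH, was the deepest of these. A209240363T on chromosome 2 was covered by 2708 reads per heterozygous fetus, and the share lay between 0.858 and 0.883 in 6 fetuses (mean 0.873 ± 0.0099, SD, n = 6). The next SNP was 1 bp away. At other SNPs of this 3' UTR, phased as described below, the share of the same haplotype ran from 0.538 to 0.859 within 100 bp. It was 0.539 at the phased SNP farther off.

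BDH1, the mitochondrial enzyme that interconverts the ketone bodies, had a mean of 0.857 ± 0.0506 (SD, n = 10) at A190218499T on chromosome 1. CD300LG, a receptor of the capillary endothelium, had 0.851 ± 0.0586 (SD, n = 7) at G43170955A on chromosome 11. CAST encodes calpastatin, the inhibitor of the calpain proteases, and its A93483793T on chromosome 5 ran from 0.75 through a median of 0.878 to 0.929 over 12 fetuses. At phased SNPs of the same 3' UTR within 100 bp, the shares of the same haplotype ran from 0.611 to 0.855 in BDH1. They ran from 0.536 to 0.8475 in CD300LG and from 0.585 to 0.866 in CAST. At 1 phased SNP beyond 100 bp, the share was 0.4998 in CD300LG and 0.496 in CAST.

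A few of the 15 had no close neighbour or a wide spread. ATAD1, an ATPase that extracts proteins from membranes, had a mean of 0.853 ± 0.0539 (SD, n = 13) at A9173562T on chromosome 22, where the nearest listed SNP was 176 bp away. ADAM19, a metalloproteinase, had the widest spread of the 15, from 0.611 through a median of 0.867 to 0.907 over 10 fetuses, and 3 of them were under 0.75 while 7 were at 0.829 or more. RPS23, of the small ribosomal subunit, and HBBB, a beta globin of red cells, belong to families with near-identical copies, so the gene from which their reads came is uncertain. RPS23 had 0.890 ± 0.0160 (SD, n = 8) at T43017625C on chromosome 3, and HBBB had 0.861 ± 0.0325 (SD, n = 11) at T47567215G on chromosome 15. The library kit did not mark the strand, and in the RefSeq annotation of another assembly (ARS-UI_Ramb_v3.0) ALDH5A1, BDH1 and ADAM19 overlap other listed genes, from which their reads cannot be told apart.

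Among the same 322 members, 62 favoured the alternate allele, and their departures were smaller. The 5 largest of them, 1 per gene, were named after their values were seen. RXRB, the beta retinoid X receptor, had the lowest mean of the 62, 0.273 ± 0.0611 (SD, n = 8), at C7483295A on chromosome 20, where all 8 fetuses were under 0.395. ADRA1A, the alpha 1A adrenergic receptor, had 0.283 ± 0.0813 (SD, n = 13) at G38747133A on chromosome 2, with 13 of 13 fetuses higher for the alternate allele. NUB1, GRHPR and AADAT followed with means of 0.292, 0.294 and 0.295. None of the 5 had another SNP within 5 bp, and the nearest stood 90 to 236 bp away. Outside these limits, called members departed farther, with alternate shares of 0.795 at PPP3CA T23848515A and 0.760 at SGK1 A59319695C, and the latter had another listed SNP within 5 bp.

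An imbalance of the whole mRNA would be read at each SNP of a haplotype, so SNPs of a gene were compared after phasing. SNPs were phased by their genotypes: the reference alleles of a pair were taken to lie on the same chromosome where the genotypes of the 18 fetuses correlated at 0.9 or more, and on opposite chromosomes where the correlation was as strong and negative. Shares are then given for the same haplotype at both SNPs, over at least 5 fetuses with at least 20 reads at each. There were 6327 such pairs within a 3' UTR in 374 genes and 1572 pairs of a 3' UTR with a synonymous SNP in 260 genes. Pairs of a gene share SNPs and reads, and SNPs within 100 bp can lie on the same read, so the correlations below are descriptions.

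Agreement within a 3' UTR fell with distance. With 1 pair per gene, the mean shares of 253 pairs up to 100 bp apart differed by a median of 0.0140 and correlated with Pearson's r of 0.897. Those of 246 pairs over 100 and up to 500 bp apart differed by 0.0288 with r of 0.392, and those of 184 pairs over 500 bp apart by 0.0334 with r of 0.226, with 51.6% of the latter on the same side of 0.5. Over all phased pairs, r was 0.826, 0.291 and 0.208 in the same bins. Synonymous pairs had r of 0.890, 0.620 and 0.491 with 1 pair per gene, measured over distances that include introns. A 3' UTR and a synonymous SNP over 500 bp apart differed by a median of 0.0310, with r of 0.536 over 241 genes and 65.1% on the same side. These r depend on how far the shares of the genes spread, and the difference between the classes was not tested.

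**Figure D3:**
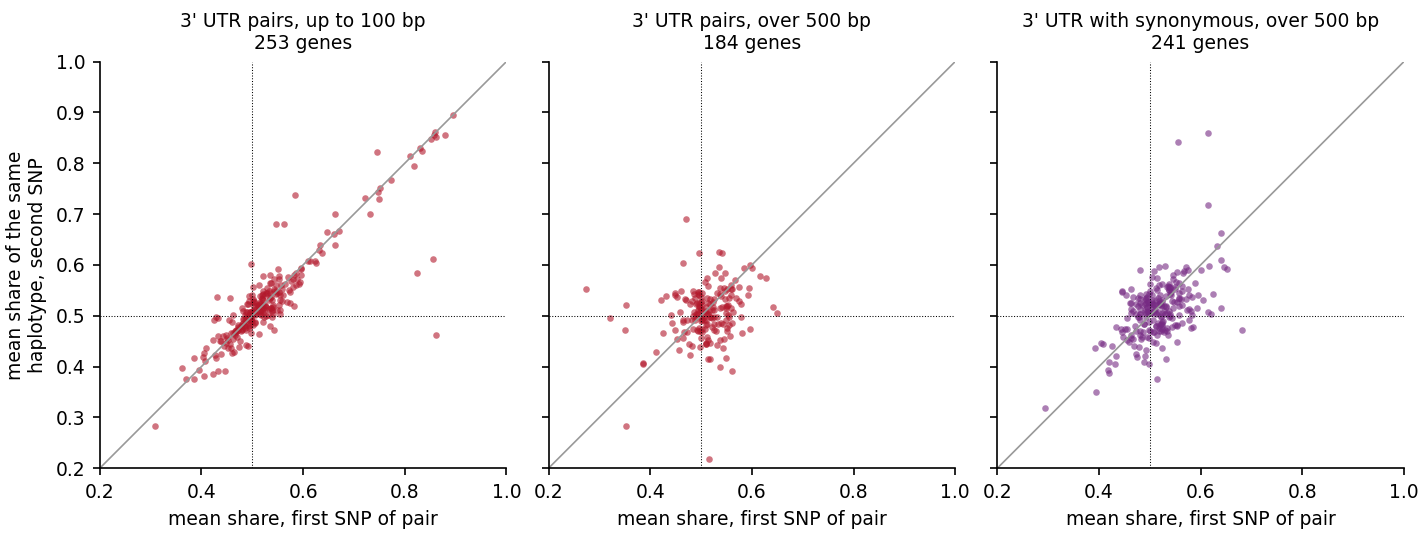
Mean share of reads on 1 haplotype at the first and second SNP of a phased pair (both axes, shares of reads), with 1 pair per gene. The panels show 3' UTR pairs up to 100 bp apart (253 genes), 3' UTR pairs over 500 bp apart (184 genes) and 3' UTR with synonymous SNPs over 500 bp apart (241 genes); points follow the diagonal in the first panel (r of 0.897) and less so in the other panels (0.226 and 0.536).

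Members that departed strongly were followed to their partners. For the 334 called members at least 0.1 from 0.5, chosen for their own values, the share was turned to the higher allele and the same haplotype was read at the other SNPs, with 1 member per gene. Over 61 genes, partners within 100 bp had a median of 0.611 where the member had 0.661, and 60 of 61 were above 0.5. Over 63 genes, partners in the same 3' UTR more than 100 bp away had a median of 0.530 where the member had 0.643, 42 were above 0.5 and 5 reached 0.6. Synonymous partners had a median of 0.527 over 41 genes, with 31 above 0.5 and 10 at 0.6 or more. Synonymous SNPs chosen in the same manner had 0.628 and their synonymous partners beyond 100 bp had 0.555, of which 169 of 203 were above 0.5. Some return toward 0.5 follows from the choice by size, and that part was not separated.

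ALDH5A1 and ECHDC3 show what a local departure looked like. In ALDH5A1, the SNP C32127199A had a haplotype share of 0.894 ± 0.0286 (SD, n = 8), and the SNPs 2 bp to either side had 0.896 and 0.897. On the same haplotype, 3 SNPs 2672 to 2687 bp away in the 3' UTR had means between 0.518 and 0.545, and 5 synonymous SNPs 2109 to 11189 bp away had means between 0.484 and 0.568. The high share was thus read at the SNPs 2 bp away and not at the far SNPs. No phased SNP lay at a distance in between, so the extent of the high share is not known. A32127205C, at 0.912, was not phased to C32127199A. Elsewhere in this 3' UTR, C32126270T had 0.606 (n = 10). Its 4 phased 3' UTR partners beyond 100 bp averaged 0.593, and none was under 0.582. A smaller departure was thus read over more than 100 bp there.

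ECHDC3 encodes a mitochondrial protein of the enoyl-CoA hydratase family. Around A15531116G on chromosome 13, at 0.767 ± 0.0228 (SD, n = 10), the share of the same haplotype was 0.742, 0.630, 0.484 and 0.453 at 3, 5, 34 and 52 bp on the side of lower coordinates. On the other side it was 0.563, 0.408 and 0.436 at 8, 148 and 152 bp, and the synonymous SNP 3802 bp away had 0.420 ± 0.0608 (SD, n = 10). All were heterozygous in the same 10 fetuses, so the same haplotype was the higher of the pair near the chosen SNP and the lower on either side.

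FADS1, the delta-5 desaturase of polyunsaturated fatty acid synthesis, had the same form. G39653113A and its neighbours within 100 bp had 0.675 and 0.672, while 4 partners farther off averaged 0.492 and the synonymous partner had 0.541. RXRB was mixed. Where C7483295A had 0.727 for its alternate allele, 6 partners beyond 100 bp averaged 0.519 but ran from 0.424 to 0.793, the highest at G7483407A, 112 bp away, and the synonymous partner had 0.494.

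In some genes the imbalance was also read at partners far off in the 3' UTR and in the coding sequence. Among 29 genes with both kinds of distant partner, both were at 0.55 or more on the member's haplotype in 6 genes, both were under 0.55 in 18, and 5 had only 1 of them at 0.55. Of the 6 genes, ADRA1A, SLC25A34, TRIM25, PFKL and KRI1 are described here and were named after their values were seen.

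ADRA1A receives noradrenaline on the cell surface. Of its 17 tested members, at positions 38746417 to 38749441 of chromosome 2, 14 were called, and so were 9 of 9 synonymous SNPs. C38749343G had 0.718 ± 0.0717 (SD, n = 12), its 3' UTR partner C38746551T on the same haplotype had 0.663, and the synonymous partner G38744444A had 0.615. A further 5 members were heterozygous in all 18 fetuses, each with A as the reference and G as the alternate base, and their means ran from 0.445 at A38748337G to 0.793 at A38747646G.

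SLC25A34 encodes a mitochondrial carrier. All 10 of its members were called, and on the haplotype of G49884232A (0.674 ± 0.0632, SD, n = 10) the other 3' UTR SNPs, 639 bp before to 730 bp after it, had means of 0.592 to 0.614. The synonymous SNP had 0.590 ± 0.0657 (SD, n = 10), which lay within 1 SD of these.

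In PFKL, the liver phosphofructokinase, 5 of 5 members and 13 of 14 synonymous SNPs were called. Its C262431801T on chromosome 1 had 0.672 ± 0.234 (SD, n = 7), a partner in the 3' UTR had 0.658, and 4 synonymous partners averaged 0.761 in fetuses in which the member itself averaged 0.730. TRIM25, a ubiquitin ligase of antiviral signalling, had 0.617 at G7267711A, 0.579 at a 3' UTR partner and 0.619 at its synonymous partners, but 4 of its 14 members were called. KRI1, of ribosome assembly, had 0.641 at G12744946C, 0.557 at its 3' UTR partner and 0.60 at its synonymous partners, and 1 of its 2 members was called.

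**Figure D4:**
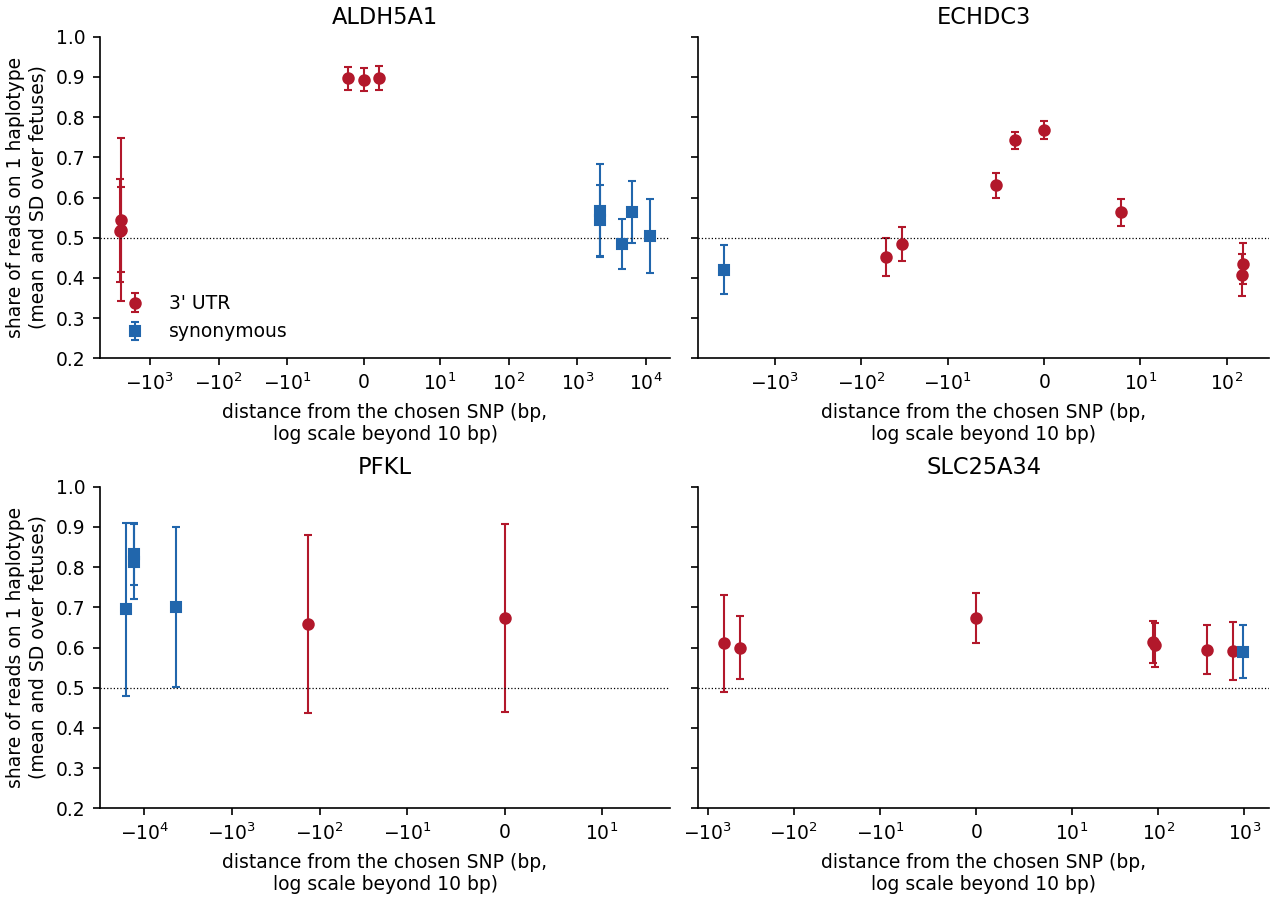
Share of reads on 1 haplotype (vertical axis, mean and SD over fetuses) by distance in bp from a chosen 3' UTR SNP (horizontal axis, log scale beyond 10 bp) in 4 genes; circles are 3' UTR SNPs and squares are synonymous SNPs. In ALDH5A1 and ECHDC3 the shares peak near the chosen SNP at 0.894 and 0.767 and lie near or under 0.5 farther off, while in PFKL and SLC25A34 they stay between 0.590 and 0.832 throughout.

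The 3' UTR was then tested against the coding sequence in each gene. Reads of the phased 3' UTR SNPs and of the phased synonymous SNPs were summed per haplotype in each fetus, and the difference of the 2 log2 ratios was tested over fetuses with limma. The haplotype is that of the reference allele of the 3' UTR SNP heterozygous in most fetuses. Of 539 genes with both classes, 146 could be phased and read in at least 5 fetuses. The difference passed an adjusted p of 0.05 in 14 of them (9.59%), 10 with the higher share of this haplotype in the 3' UTR, and 33 passed without adjustment. With the median reference excess of each class subtracted, 11 genes were called, 6 of them higher in the 3' UTR. The part of the reference allele in the split was not tested. The 3' UTR was the farther from 0.5 in 8 of the 14. Over the 146 genes the median size of the difference was 0.15 on the log2 scale, and the 3' UTR and synonymous shares correlated with r of 0.677 as a description across genes. Among the 14 called genes the 10 largest differences were in ODC1, HBBB, CPE, ECHDC3, RPS23, ARHGEF12, CISD2, PSMA2, TRIM4 and NUSAP1. HSPA9, KDELR3 and NUB1 were called with smaller differences, of 0.38, -0.38 and 0.37.

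ODC1, ornithine decarboxylase of polyamine synthesis, had the smallest p. Its 3' UTR SNP C19476529A on chromosome 3 had a share of 0.555 ± 0.0335 (0.503 to 0.599, SD, n = 12), while the synonymous SNPs had 0.714 ± 0.0207 (0.663 to 0.741, SD, n = 12), and the ranges did not overlap. The log2 difference was -1.0 ± 0.05 (SE, adjusted p = 8.92e-09). The synonymous SNPs did not have the same share: A19476631G, 102 bp from the 3' UTR SNP, had 0.618 ± 0.0290 (SD, n = 12) and A19479349G, farther into the gene, had 0.842 ± 0.0118 (SD, n = 12). The share of the haplotype therefore rose over these 3 SNPs with distance from the 3' UTR.

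HBBB differed the other way. Its 6 phased 3' UTR SNPs, between positions 47567213 and 47567274 of chromosome 15, had 0.792 ± 0.0292 (SD, n = 11) and its 3 synonymous SNPs had 0.626 ± 0.0442 (SD, n = 11), and the 3' UTR was higher in 11 of 11 fetuses (difference 1.19 ± 0.09, SE, adjusted p = 4.92e-07). In RPS23 the 3' UTR SNP had 0.890 and a synonymous SNP 51 bp away had 0.824 in the same 8 fetuses. The other synonymous SNP of RPS23, which was not phased to it, had 0.521 ± 0.0096 (SD, n = 10).

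CPE, the carboxypeptidase that trims peptide hormones, had 0.649 ± 0.0646 in the 3' UTR and 0.469 ± 0.0469 in the coding sequence (SD, n = 11), higher in 10 of 11 fetuses. NUSAP1, a protein of the mitotic spindle, had 0.614 ± 0.0369 over 9 3' UTR SNPs and 0.539 ± 0.0518 at 1 synonymous SNP (SD, n = 17). ARHGEF12, a guanine nucleotide exchange factor, was lower in the 3' UTR, at 0.472 ± 0.0600 against 0.584 ± 0.0315 (SD, n = 10). CISD2, PSMA2 and TRIM4 each had 1 SNP a region and differences of 0.62, 0.55 and 0.48 on the log2 scale.

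The calls differed in how they held up. ODC1, HBBB, NUSAP1, RPS23 and KDELR3 were called in each alternative in which they could be fitted and with each fetus left out, but the size moved in ODC1 to -0.37 with only the deepest SNP of each region and in HBBB to 1.96 with that choice and 0.60 without SNPs within 5 bp of another. CPE, ECHDC3, ARHGEF12 and NUB1 lost the call with only the deepest SNP, where ECHDC3 turned to -0.067, and CPE and ECHDC3 also lost it without SNPs within 5 bp of another (adjusted p of 0.168 and 0.0694). PSMA2, TRIM4, CISD2 and HSPA9 lost it when the median reference excess of each class was subtracted, and TRIM4 and CISD2 lost it without some single fetuses as well. In PSMA2, TRIM4, CISD2 and HSPA9 the reference alleles of the 3' UTR and the synonymous SNP were on opposite haplotypes. A reference excess at both SNPs is then read as a difference between the regions, and its part was not tested. CISD2 and KDELR3 overlap UBE2D3 and DDX17 in RefSeq. ODC1, CPE, HSPA9 and TRIM4 overlap other listed genes there, and reads of overlapping genes cannot be told apart.

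**Figure D5:**
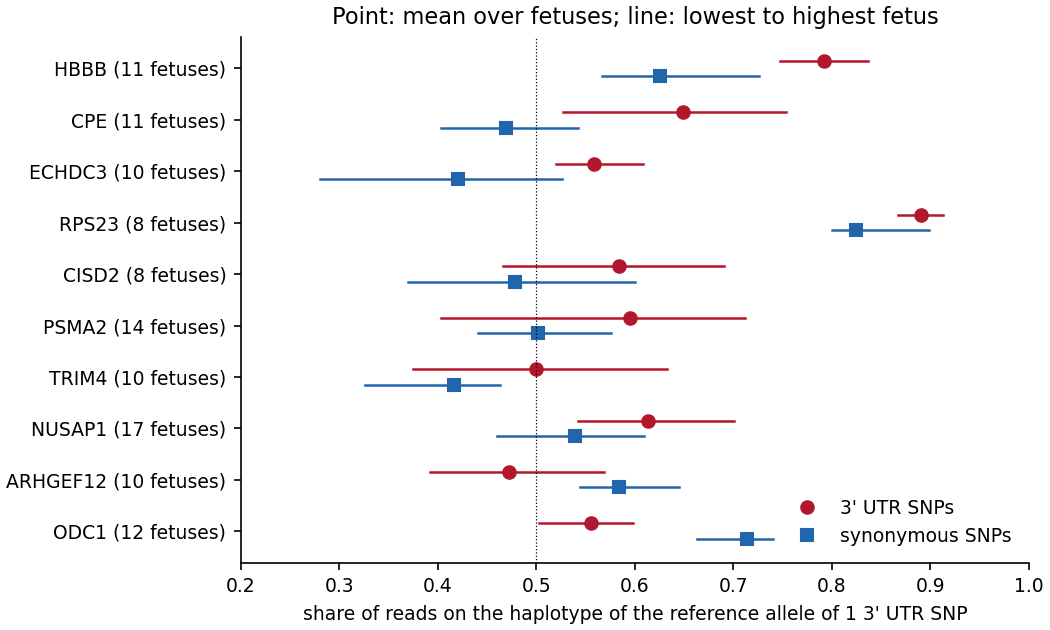
Share of reads on the haplotype of the reference allele of a 3' UTR SNP (horizontal axis) for the 10 genes with the largest difference between regions among the 14 called. Circles are 3' UTR SNPs and squares synonymous SNPs, as means over fetuses with lines from the lowest to the highest fetus; in ODC1 and HBBB the lines do not overlap, and in the other 8 genes they do.

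Of genes with strong members whose regions did not differ at the threshold, NDUFA10 and RWDD4 were among those with the smallest p in the test of single SNPs. NDUFA10, a subunit of respiratory complex I, had 0.540 ± 0.0348 in the 3' UTR and 0.516 ± 0.0350 in the coding sequence (SD, n = 13, adjusted p = 0.114). Only 1 of its 8 members, G1523101A, entered this comparison. The NDUFA10 member with the smallest p, T1523053C with a mean share of 0.606, did not, so it was not tested against the coding sequence. RWDD4, with 5 of its 14 members compared, had 0.520 and 0.509, a difference of 0.06 ± 0.08 (SE, adjusted p = 0.685). The direction in RWDD4 changed between alternatives. With phasing at a genotype correlation of at least 0.99, its regions did differ, by 0.32 on the log2 scale (limma, adjusted p = 0.00666).

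The 8 genes with the most members were OSBPL8, GLG1, ALDH5A1, F2R, IMPAD1, MGAT5, GAPVD1 and GPD1L, with 50, 42, 41, 39, 37, 32, 29 and 25. The number of calls varied widely among them, where 24.5% of all SNPs of the table were called. In OSBPL8, an oxysterol-binding protein, 3 of 50 were called over 3743 bp and the median share was 0.517. In F2R, the thrombin receptor, and GAPVD1, of endosomal traffic, 2 were called in each. In ALDH5A1, 16 of 41 were called, 15 with the reference allele higher, and shares ran from 0.397 to 0.909. IMPAD1, a phosphatase of the Golgi, had 14 of 37 called, 3 of them toward the alternate allele. GPD1L, related to glycerol 3-phosphate dehydrogenase, had 10 of 25 called. Read depth differed between these genes too. The median over members was 156.8 reads per heterozygous fetus in ALDH5A1, 118.1 in GPD1L and 110.1 in IMPAD1. It was 68.8 in OSBPL8, 53.9 in F2R and 39.25 in GAPVD1. Fewer reads leave less power to call a SNP, and the part of depth in these counts was not tested. Phased pairs over 500 bp apart differed by medians of 0.0310 in GLG1 to 0.0608 in IMPAD1.

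Few listed genes of fat metabolism held members, where 804 of the 5810 genes of the table did. The lists below count genes whether or not they had a SNP in the table, so scarcity was not tested. Of 41 genes of adipocyte identity and thermogenesis, only ADIPOQ held members, and UCP1, FABP4, PLIN1 and LEP held none. ADIPOQ encodes adiponectin, a hormone of adipocytes. Its 4 members were read at 13294 to 16343 reads per heterozygous fetus and stayed near equality. G198619879A had 0.526 ± 0.0173 (SD, n = 9, adjusted p = 5.36e-05) and C198619826T had 0.525 ± 0.0198 (SD, n = 9), each higher for the reference allele in 9 of 9 fetuses. C198619801G and A198619820G had 0.489 and 0.508 and were not called (adjusted p of 0.0544 and 0.198). The calls of the first pair were lost with limma on log ratios and with the null at the median share.

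Lipid synthesis, storage and lipolysis held 56 members in 6 of 52 genes. Of these, 14 (25%) were called, close to the 24.5% of all SNPs. All had the reference allele higher, as did 4655 of the 5923 called SNPs of the table, and they were in FADS1 (9), LPGAT1 (3) and SCD (2). In FADS1, 6 of the 9 were at adjoining bases, from position 39653111 to 39653116 of chromosome 21, and share reads. The list's median share was 0.525 and its median distance 0.0374, against 0.518 and 0.0339 over all SNPs tested. Fatty acid oxidation and mitochondrial fuel use held 27 members in 5 of 50 genes, and 9 (33.3%) were called, 5 toward the reference and 4 toward the alternate allele. The 4 were in PDK4, the kinase that turns off pyruvate dehydrogenase, whose 14 members had a median of 0.426. Another called PDK4 SNP, G12769405T on chromosome 4, went the other way with 0.639 ± 0.10 (SD, n = 10) and was higher for the reference allele in 8 of 10 fetuses. CPT1A, which admits long-chain fatty acids to the mitochondrion, had 0.541 ± 0.0104 (SD, n = 6) at A45447843G, a call that was lost with limma on log ratios.

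Collagens and extracellular matrix held 55 members in 13 of 65 genes. Of 53 tested, 24 (45.3%) were called in 9 genes, against 24.5% of all SNPs, 21 of them toward the reference allele. MMP14, a membrane metalloproteinase, had 6 of 6 called with shares from 0.667 to 0.826. DCN, decorin, had 4 of 4, with 0.847 ± 0.0161 (SD, n = 17) at C127427540T and 0.841 ± 0.0118 (SD, n = 12) at C127427536T. At these DCN SNPs, homozygous fetuses had 12.3% and 12.4% of reads with the other allele, which was over the 2% used for the named members. Each of these DCN SNPs had another listed SNP 1 bp away, and SNPs this close share reads. The list's median share was 0.523 and its median distance 0.0299, against 0.518 and 0.0339 over all SNPs tested.

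Genes whose proteins bind or cut 3' UTRs or decay mRNA held 40 members in 11 of 107 genes, and 10 (25%) were called, close to the 24.5% of all SNPs and all toward the reference allele. They were in MBNL1 (5), DDX6 (3) and DICER1 (2). MBNL1 regulates splicing and the location of mRNAs, and T233455734A on chromosome 1 had 0.866 ± 0.0174 (SD, n = 16). Another SNP stood 2 bp from it, and its 2 homozygous fetuses had 11.8% of reads with the other allele. The list's median share was 0.532. Of mRNAs with a known regulatory 3' UTR element, 12 members in 6 of 70 genes were found and 4 of 11 tested were called, in CDKN1B, IGF2 and ODC1. CDKN1B, an inhibitor of the cell cycle, had 0.818 ± 0.0864 (SD, n = 16) at T201986580A on chromosome 3, with 16 of 16 fetuses higher for the reference allele.

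Genes imprinted in mammals, expressed from the allele of 1 parent, held 7 members in 2 of 46 genes. Of 6 tested, 5 (83.3%) were called, against 24.5% of all SNPs. UBE3A, a ubiquitin ligase, had 3 of 3 called toward the reference allele, with 0.862 ± 0.0477 (SD, n = 6) at T1323471C and 0.660 ± 0.0397 (SD, n = 16) at G1323013A. At these UBE3A SNPs the homozygous fetuses had 2.10% and 24.4% of reads with the other allele, over the 2% used for the named members. Another SNP stood 2 bp from T1323471C. IGF2, insulin-like growth factor 2, had SNPs at 3 consecutive bases. C48680501T had 0.483 ± 0.118 (SD, n = 12) and was not called. C48680502T was lower for the reference allele in 16 of 17 fetuses with 0.366 ± 0.0687 (SD, n = 17), and C48680503T was higher for it in 12 of 13 with 0.768 ± 0.178 (SD, n = 13). At the latter pair the homozygous fetuses had 28.3% and 21.7% of reads with the other allele.

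Members heterozygous in 15 or more fetuses differed from the rest. There were 270 in 121 genes, 154 (57%) were called with fetuses as replicates against 23.5% of the members heterozygous in 5 to 14, and 127 of these were toward the reference allele. Their transitions were 58.5% against 72.4%, and 42.6% had another SNP within 5 bp against 13.9%. At the 113 members heterozygous in all 18 fetuses the median share was 0.605, 79 (69.9%) were called, and 65.5% had another SNP within 5 bp. Of these, 37 changed A to G or T to C, 20 changed G to A or C to T, and 56 were transversions. The rise was not particular to members: synonymous SNPs were called at 19% in 5 to 14 fetuses and at 46.1% in 15 or more. In all 18 fetuses, 241 of 366 synonymous SNPs (65.8%) were called, and 49.2% had another SNP within 5 bp.

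The 5 members with the largest departure among those heterozygous in 15 or more fetuses were in KLHL24, RAB2A, FBP2, AADAT and DDX6. KLHL24, an adaptor of ubiquitin ligases, had 0.894 ± 0.0319 (SD, n = 16) at C201672375T on chromosome 1, and FBP2, the muscle fructose bisphosphatase, had 0.876 ± 0.0513 (SD, n = 15) at C31762762T on chromosome 2. RAB2A, a GTPase of traffic from the endoplasmic reticulum, had 0.877 at C39061829T, AADAT, a kynurenine aminotransferase like CCBL1, had 0.874 at A109981601G, and DDX6, a helicase of mRNA storage and decay, had 0.870 at T28853896C. The homozygous fetuses, 1 to 3 for each, had 2.57% to 7.23% of reads with the other allele. A second AADAT member on the same 3' UTR, A109981770C, was higher for the alternate allele in 7 of 7 fetuses.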

How the data were processed

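RNA from perirenal adipose tissue of 18 fetuses, 1 group, was sequenced as paired reads by the authors. They aligned reads to Oar v3.1 with STAR (up to 10 mismatches, unique positions) and called SNPs and genotypes from the same reads with GATK, keeping SNPs at which 5 or more fetuses had 10 or more reads of both alleles. The deposited values are counts of reads of the reference and the alternate allele per SNP and fetus, not normalized. Deposited columns of the authors' own test (a statistic, a p-value, the higher allele and a pooled proportion of reads) were not used, and 0 columns of other samples were found. The column named PS910 was taken as the fetus labelled RS910, the only label with that number. No replicate numbering pairs groups, since there is 1 group.

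Reads of fetuses called 0/1 were summed per SNP and tested against a share of 0.5 with the Poisson likelihood ratio the study used. With fetuses as replicates, a quasi-binomial F test was used whose dispersion, at least 1, was moderated with limma 3.58.1 (R 4.3.3) over all SNPs. Adjustment was by Benjamini-Hochberg over the table. Regions were compared with limma on log2 ratios with a pseudocount of 0.5, with at least 10 reads in each region, in fetuses heterozygous at the SNPs. Scripts were tested on simulated data. Other calculations used Python 3.11.15 and scipy 1.17.1. Genotypes come from the counted reads, so strong imbalance can be called homozygous and lost, and a base error or a near-identical copy can be called heterozygous. Fetuses shared a sire, so dams and not sires differ. The summed-read test leaves out the spread between fetuses, and the other tests weigh a mean shift against the spread between these fetuses.

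Named SNPs were, 1 per gene, the 15 with the largest mean distance from 0.5 among those past both tests, heterozygous in 5 to 14 fetuses, the same allele higher in each, at least 20 reads per fetus and at most 2% of the other allele in homozygous fetuses with at least 20 reads; the 5 largest heterozygous in 15 or more; the 2 with the smallest p of each list; and members of 6 adipose and growth genes. Named genes were the 8 with most members, the 10 with the largest difference between regions and the 3 with the smallest p where it did not pass. Members and lists were chosen with earlier results of these data known. RefSeq listed 742 of the 804 symbols and 2 as synonyms. Sequence around the SNPs was not analysed here. Some genes that these rules name are not reported here. Alternatives were other read minimums, numbers of heterozygous fetuses, summaries over SNPs, null, neighbour limits, phasing limits, tests and the leaving out of each fetus.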

Additional observations from a re-analysis of the deposited data

Results flagged for a closer look

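Of 25 named SNPs heterozygous in 4 to 10 fetuses, 2 had a fetus that stood apart from the others by Dixon's ratio, where chance gives about 1 in 20. At CD300LG G43170955A, fetus 16 had a reference share of 0.721 from 749 reads, while the other 6 lay between 0.857 and 0.889. At HAGHL G576608A, fetus 9 had 0.696 from 92 reads and the other 9 lay between 0.802 and 0.889. In both the fetus was on the same side of 0.5 as the others, and neither call was lost with any fetus left out.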

How the results depend on the processing

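With 30 reads of each allele, 786 members were called on summed reads and 547 with fetuses as replicates. With no other SNP within 100 bp these counts were 418 and 222, the limit itself leaving 1233 members, and with none within 5 bp 592 were called with fetuses as replicates. Replacing the summed-read test by the one with fetuses as replicates gave 914. The share of called members with the reference allele higher was 62.8% with the null at the median share, 74.8% with no other SNP within 100 bp, 75.7% with none within 5 bp and 77.0% without adjustment. The difference per fetus was -0.0734 points with no other SNP within 5 bp (p = 0.567, sign-flip permutation test). With 50 reads at both SNPs, 66.8% of 3' UTR pairs and 68.1% of pairs with a synonymous SNP were on the same side of 0.5, against 63.5% and 64.2%. With each fetus left out, 1386 to 1434 and 869 to 899 members were called, 12 to 17 genes differed between regions, and the difference per fetus was 1.60 to 1.78 points. The limits within 5 bp and the use of 1 pair per gene were chosen after seeing the data. Genes called between regions numbered 10 to 18 over the alternatives. Of the named results, ADIPOQ A198619820G (0.508) fell under the null when that was the median share, ECHDC3 turned to -0.067 with only the deepest SNP, RWDD4 to -0.15 with reference alleles in coupling only and to -0.015 with the reference excess subtracted, and IGF2 C48680501T ran from 0.464 to 0.501 with a fetus left out. The causes were not tested. No paired analysis was possible because replicate numbers could pair only samples of different groups and there was 1 group, while SNP classes were compared within each fetus. Depth limits what single SNPs can show, with 44.2 reads or fewer per heterozygous fetus at the lower quartile of members, and SNPs within a read length share reads.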

Other observations

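A few members were high for the reference allele in some fetuses and for the alternate allele in others. Counting fetuses with at least 20 reads, 21 members in 21 genes (0.615% of members, against 0.327% of synonymous SNPs) had at least 1 fetus with a reference share under 0.25 and at least 1 over 0.75, and 3 of them were called. In 15 of the 21 exactly 1 fetus lay beyond each limit. AKAP11, an anchor of protein kinase A, had 7 of 14 fetuses over 0.75 and 1 under 0.25 at T12821840A on chromosome 10. USP24, a deubiquitinase, had 9 of 18 under 0.25 and 1 over 0.75 at T29168656G on chromosome 1. PSMD5, a chaperone of the proteasome, had 4 of 13 over 0.75 and 1 under 0.25 at G2685424T on chromosome 2, with 10.3% of reads of the other allele in homozygous fetuses. DCBLD2, a membrane protein of vessels, ran from 0.138 to 0.761 over 11 fetuses at C161576469A on chromosome 1, and NDRG1, a gene induced by low oxygen, from 0.161 to 0.836 over 9 fetuses at C21120177T on chromosome 9. The parental origin of the alleles was not determined here.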
